A study of Mus musculus with 4 samples.

Results

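Steroidogenic and luteal genes were examined in reconstituted ovaries (rOvaries), and 10 genes were chosen by name among the 54021 gene symbols of the count table. Star, Cyp11a1, Hsd3b1, Hsd3b6, Cyp17a1, Cyp19a1 and Akr1c18 encode proteins of steroid transport and metabolism. Lhcgr and Prlr encode the receptors for luteinizing hormone and prolactin, and Nr5a1 encodes a transcription factor of steroid-producing cells. All 10 were in the table, and all 10 had a mean above 10 CPM (read counts scaled to the size of the library) over the 4 libraries. The choice was made knowing that the control rOvaries lay far apart, so each library is shown.

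The rOvaries had grown for 4 weeks beneath the kidney capsule of ovariectomized female recipients. These were second-generation telomerase-deficient mice (G2 Terc-/-) on the C57BL/6 background, which averaged 10 weeks of age at transplantation. The rOvaries were formed from primordial germ cells aggregated with fetal gonadal somatic cells of actin-GFP C57BL/6 donors. The study does not describe these donors as telomerase-deficient. In 2 libraries (INK128 replicates 1 and 2, the treated grafts) the recipients drank INK128, an inhibitor of the mTOR kinase in both of its complexes. In the other 2 libraries (Control replicates 1 and 3, named control 1 and control 3) they did not. The study's methods put INK128 at 30 μM in the water, whereas the sample labels state 0.75 μM per g. Whether a library held one graft or several, whether the controls drank the DMSO vehicle, and which mouse gave which library is not given in the sources used here. The p-values below therefore measure the spread between libraries, which may be partly technical.

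Ovarian steroids are made in sequence. STAR brings cholesterol to the inner mitochondrial membrane, CYP11A1 cuts its side chain to give pregnenolone, and the HSD3B enzymes turn pregnenolone into progesterone. In theca cells CYP17A1 carries the pathway on to androgens, which CYP19A1 (aromatase) of granulosa cells converts to estrogens. After ovulation the follicle becomes a corpus luteum, which in rodents is kept active by prolactin through PRLR and shuts down progesterone output partly through AKR1C18, the enzyme that inactivates progesterone.

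Library totals ran from 19130209 to 23029089 counts, and a floor of 3 counts, for counting error only, equals 0.13 to 0.157 CPM. The controls differed in kind. Control 1 held 1021 counts of 4 Y-linked genes (0 to 2 elsewhere), and 9 of 10 Sertoli cell markers were highest in it, although the study's methods name female gonads as the source of the cells. Control 3 had the lowest level of all 10 oocyte markers, which summed to 25.9 CPM there and to 831 to 1187 CPM in the rest. The granulosa cell marker Foxl2 was present throughout, at 145 to 373 CPM, but other granulosa markers set the controls further apart. Amh, also on the Sertoli list, measured 131 and 80.5 CPM under INK128, 433 in control 1 and 5.08 in control 3. Inhba measured 579 and 715 CPM under INK128, 175 in control 1 and 2079 in control 3. Of the 10 granulosa markers listed, 7 were lowest in control 1 and 3 in control 3. In bulk tissue, fewer cells of a type and less RNA per cell cannot be told apart.

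Sequence upstream of 3 members is shown because NR5A1 binds variants of the nuclear receptor half-site AGGTCA. RefSeq promoter windows (250 bases before to 50 after a start, build GRCm38.p6) were at hand for 7 of the 10 members, as 12 windows, and AGGTCA lay on either strand in 4 of these windows, from 4 genes, against 16.3% of all 32851 windows. The longer AAGGTCA was in 0 of the 12 and in 4.72% of all windows. Star, Cyp17a1 and Nr5a1 had no entry. Capitals mark the half-site, which in Cyp19a1 reads on the opposite strand as TGACCT, and each sequence runs 5′ to 3′ on the gene's strand. The Cyp11a1 stretch, chr9:58014912-58014941 on the plus strand, lies before a start inside the gene and within an annotated exon. The other stretches are chr17:88792104-88792163 for Lhcgr and chr9:54268213-54268272 for Cyp19a1, both on the minus strand and outside annotated exons. In Akr1c18 the match lay 27 bases after the start.
Cyp11a1: gaggaaggggggAGGTCAccgctccatcag
Lhcgr: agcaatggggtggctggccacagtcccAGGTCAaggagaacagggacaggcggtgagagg
Cyp19a1: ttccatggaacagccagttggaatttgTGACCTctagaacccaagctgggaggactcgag
These matches are descriptions of sequence, and the data hold no measure of binding. Which start of a gene the grafts used was not tested, so a printed stretch need not be the promoter active in them.

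The comparison of treated grafts with controls asks whether mTOR inhibition changed the transcripts of hormone production. None of the 10 members passed the test. A gene was called at an edgeR quasi-likelihood adjusted p below 0.05 over 11758 tested genes with a change above 1.5-fold. This applied to 0 of 10 members, where 6.37% of all tested genes were called (3.18% higher and 3.19% lower with INK128). At an unadjusted p under 0.05 there were also 0 of 10, against 36.4% of tested genes, and limma voom called 0 members and 0% of tested genes. DESeq2 called 1 member, Star, against 28.6% of tested genes. Log2 fold changes were positive for 6 members and negative for 4, with a median of 0.16 against −0.03 over all tested genes. The standard errors of the members had a median of 1.06 on the log2 scale, against 0.25 over all tested genes.

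**Figure D1:**
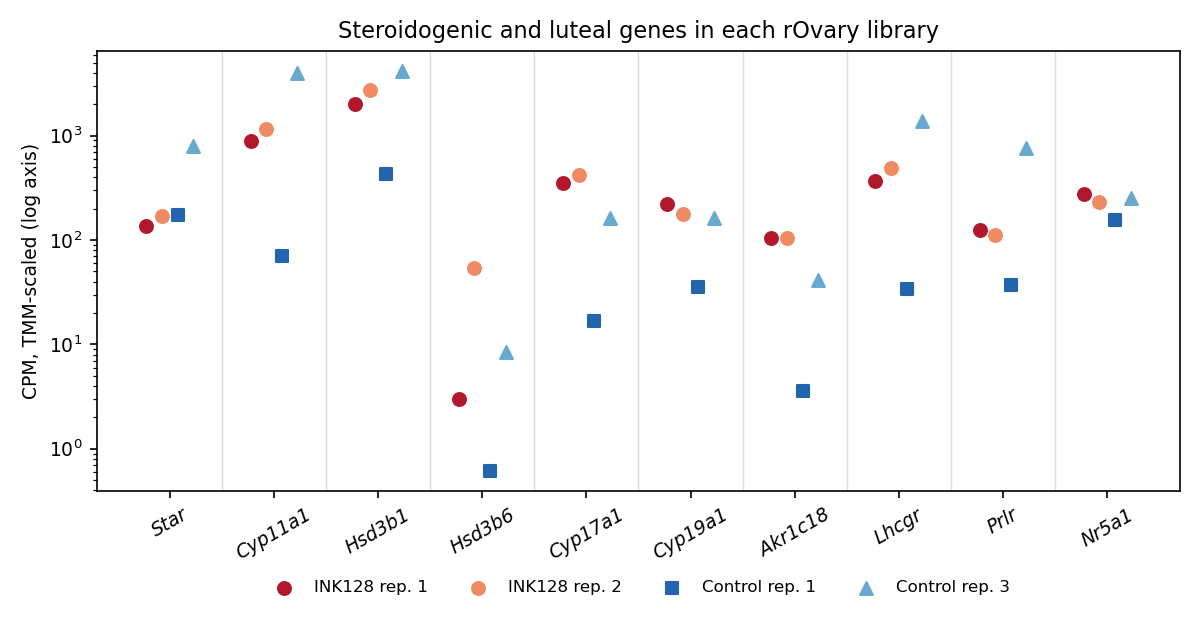
CPM of each member (log axis) in the 2 INK128-treated and the 2 control rOvaries, 1 point per library. Control 3 lies above control 1 for all 10 genes, and the treated grafts lie above both controls for Cyp17a1, Cyp19a1 and Akr1c18 only (35.2% of tested genes do).

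The controls lay far apart for these genes. Control 3 was above control 1 for 10 of 10 members (51% of tested genes), and by more than 2-fold for 9 of them, while 6.51% of all tested genes were more than 2-fold higher in control 3 and 13.8% were more than 2-fold apart in either direction. The ratio of control 3 to control 1 was 57.1 for Cyp11a1, 40.5 for Lhcgr and 20.7 for Prlr. It was 1.63 for Nr5a1, the member with the closest controls. The treated grafts were closer to each other, with 1 of 10 members (Hsd3b6) more than 2-fold apart, against 1% of tested genes. Both treated grafts lay above control 1 for 9 of 10 members (45.8% of tested genes) and below control 3 for 5 of 10 (44.4%). For 4 members (Cyp11a1, Hsd3b1, Lhcgr and Prlr) both lay between the controls, where 14.3% of tested genes did. The groups did not overlap for 4 members, while they did not overlap for 68.5% of tested genes. Both treated grafts were above both controls for 3 members, against 35.2% of tested genes, and below both for 1 member (Star), against 33.3%.

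**Figure D2:**
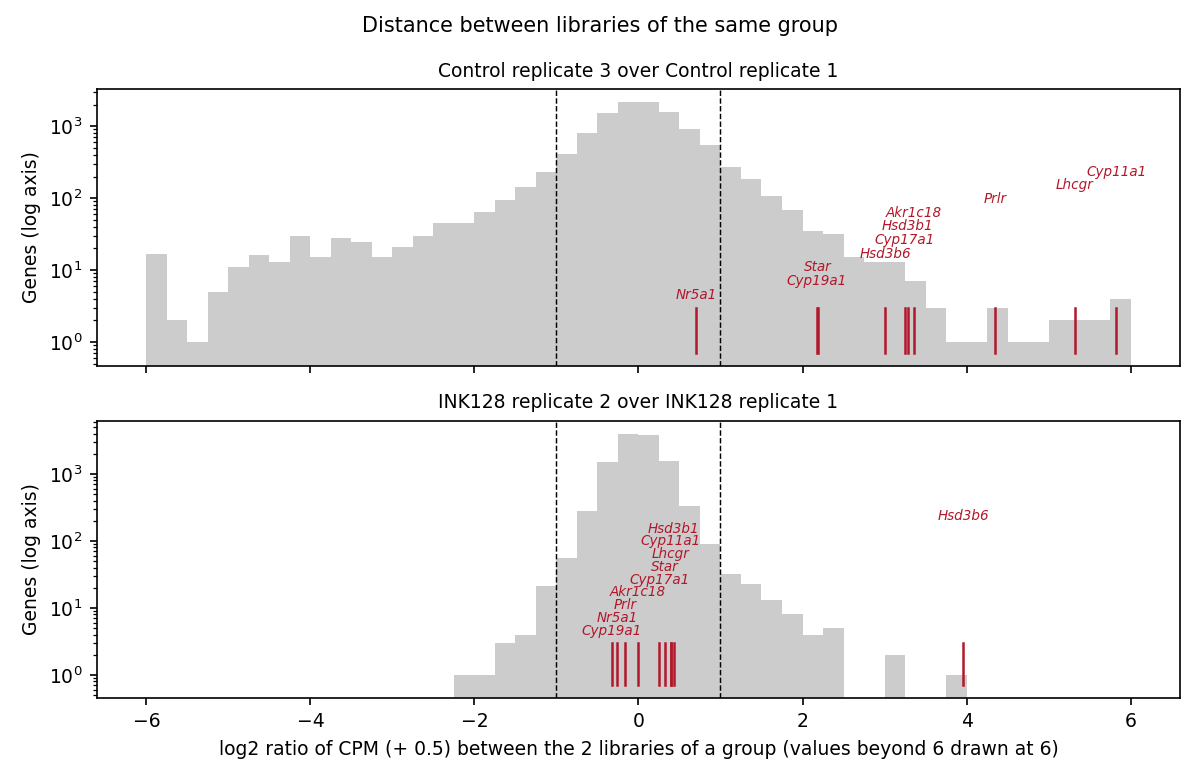
Log2 ratio of CPM (plus 0.5) between the libraries of a group, with all 11758 tested genes in gray (number of genes on a log axis), members in red and dashed lines at 2-fold. In the upper panel 9 members lie beyond 2-fold toward control 3, and in the lower panel Hsd3b6 alone does so between the treated grafts.

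Transcripts of Star and Cyp11a1 were highest in control 3. Star (chromosome 8 of mm10, 25806555 to 25815982) stood at 135 and 169 CPM in the treated grafts, 173 in control 1 and 791 in control 3. The treated grafts were below both controls, though by a narrow margin for control 1. For Star, edgeR estimated a log2 difference of −1.68 (SE 0.74) at an adjusted p of 0.176, and DESeq2 one of −1.69 at an adjusted p of 0.0387. Omitting control 1 moved the edgeR estimate to −2.39 (adjusted p 8.33e-06) and omitting control 3 to −0.20 (adjusted p 0.442). Cyp11a1 (chromosome 9, 58006411 to 58027023) reached 883 and 1162 CPM under INK128, 70.3 in control 1 and 4014 in control 3. The treated grafts thus held at least 12.6 times the level of one control and under that of the other. The edgeR estimate for Cyp11a1, −1.01 (SE 1.59, adjusted p 0.663), became −1.99 without control 1 (adjusted p 7.88e-05) and 3.85 without control 3 (adjusted p 1.9e-06). In limma voom, which fits log values, it was 0.92. Fits with 1 control left assume that this lone library varies as the treated pair does. They called 45.8% of all tested genes without control 1 (22.7% higher and 23.2% lower) and 42.6% without control 3 (21.2% higher and 21.4% lower).

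Hsd3b1 and Hsd3b6 lie side by side on chromosome 3, at 98852194 to 98859794 and 98805504 to 98814443, and encode enzymes for the same step. Hsd3b1 was the most abundant member per kilobase of exon in every library. Its reads came to 2027 and 2729 CPM under INK128, 431 in control 1 and 4193 in control 3. The treated levels fell between the controls, and edgeR put the log2 difference at 0.03 (SE 1.01, adjusted p 0.985). This sign is not fixed, since the estimate for Hsd3b1 was −0.11 with library totals as the only scaling, −0.59 with offsets for transcript length, −0.20 without INK128 replicate 2 and 0.80 in limma voom. In edgeR it was −0.83 without control 1 (adjusted p 0.0158) and 2.45 without control 3 (adjusted p 4.46e-05).

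Hsd3b6 was the member whose treated grafts disagreed. It stood at 2.97 CPM in the first treated graft (INK128 replicate 1) and 53.4 in the other, 0.617 in control 1 and 8.48 in control 3 (55, 1156, 14 and 202 counts). A single library therefore carried most of its reads. On log2(CPM + 0.5), its distance between the treated grafts ranked 1 among the 11758 tested genes. The edgeR estimate of 2.62 (SE 1.72, adjusted p 0.321) was 1.96 with offsets for transcript length, −0.63 without INK128 replicate 2 and 5.49 without control 3 (adjusted p 0.00911). In counts, Hsd3b6 made 1.96% of Hsd3b1 in INK128 replicate 2 and 0.143% to 0.202% in the other 3 libraries. The longest transcripts of these genes are 81.2% identical over 1789 aligned bases, with a longest shared run of 72 bases. Hsd3b6 shares 93.2% identity and a run of 155 bases with Hsd3b3, and 90.5% identity and a run of 147 bases with Hsd3b2, so reads could be split between copies and the values of Hsd3b6 are uncertain. Hsd3b3 was at 0.216 and 0.37 CPM in the treated grafts, 1.94 in control 1 and 6.97 in control 3. Hsd3b2 was at 0.27 and 0.231 CPM in the treated grafts, 3.66 in control 1 and 6.26 in control 3, so in control 1 both copies were above Hsd3b6.

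Adrenal cortex genes were high in the same library as Hsd3b6. Cyp21a1, which encodes an enzyme of corticosteroid synthesis, measured 18.3 and 68.4 CPM under INK128, 1.23 in control 1 and 0.168 in control 3. Cyp11b1, which acts later in the same pathway, measured 13.5 and 39.2 CPM under INK128, 0 counts in control 1 and 3.32 CPM in control 3. Of 6 adrenal cortex markers, 4 lay above both controls in each treated graft (35.2% of tested genes did), and the list summed to 88.6 and 194 CPM under INK128 and to 26.1 and 55.1 CPM in control 1 and control 3. Mc2r, the adrenocorticotropin receptor, was among the 4 (6.52 and 8.04 CPM against 0.0441 and 1.05 CPM), while Cyp11b2 was at 0 counts in 3 libraries. The adrenal cortex also expresses Star, Cyp11a1, Hsd3b1 and Nr5a1, and the part of such cells in the members' values was not tested.

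Cyp17a1, Cyp19a1 and Akr1c18 lay above both controls in each treated graft, as 3 of 10 members against 35.2% of tested genes. Cyp17a1 (chromosome 19, 46667165 to 46673172) measured 356 and 424 CPM under INK128, 16.9 in control 1 and 164 in control 3. The edgeR estimate for Cyp17a1, 2.09 (log2, SE 1.04), did not pass at an adjusted p of 0.214. Akr1c18 (chromosome 13, 4132615 to 4150654) was at 104 CPM in each treated graft (1929 and 2244 counts), 3.61 in control 1 and 41.6 in control 3. For it edgeR estimated 2.19 (SE 1.09, adjusted p 0.214), and DESeq2 2.18 with an adjusted p of 0.0599. The value for Akr1c18 was 1.41 with offsets for transcript length (adjusted p 0.449 in edgeR) and 3.01 in limma voom (adjusted p 0.115), and limma voom gave 2.86 for Cyp17a1 (adjusted p 0.144). Both edgeR estimates stayed positive whichever control was left out, as did those of Cyp19a1 and Hsd3b6. Without control 1 the log2 estimates were 1.24 for Cyp17a1 and 1.31 for Akr1c18, and without control 3 they were 4.52 and 4.83. Cyp19a1 (chromosome 9, 54165937 to 54268110) measured 224 and 178 CPM under INK128, 35.6 in control 1 and 162 in control 3. Its treated grafts stood only just above control 3, and edgeR gave 1.01 (SE 0.72, adjusted p 0.355). That value was 0.30 without control 1 (adjusted p 0.261) and 2.48 without control 3 (adjusted p 1.22e-05) in edgeR.

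Both hormone receptors were highest in control 3. Lhcgr (chromosome 17, 88716481 to 88791990), which marks theca, luteal and mature granulosa cells, measured 371 and 488 CPM under INK128, 33.9 in control 1 and 1374 in control 3. The edgeR estimate of −0.73 (SE 1.48, adjusted p 0.739) was −1.69 without control 1 (adjusted p 0.000149) and 3.65 without control 3 (adjusted p 1.92e-06), and limma voom gave 0.96. Prlr (chromosome 15, 10177238 to 10349180) measured 124 and 111 CPM under INK128, 36.7 in control 1 and 761 in control 3. The treated grafts were 3.03 times or more above control 1 and well under control 3. The edgeR estimate for Prlr, −1.77 (SE 1.3, adjusted p 0.365), was −2.71 without control 1 (adjusted p 2.27e-06), 1.67 without control 3 (adjusted p 7.84e-05) and −1.06 with offsets for transcript length, and limma voom gave −0.52. Prlr shares 203 exon bases with Gm21973, which had 24 and 43 counts in the treated grafts, 30 in control 1 and 1056 in control 3, so reads of the overlap are uncertain.

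Nr5a1 was the member with the smallest standard error. This gene (chromosome 2, 38692656 to 38714542) measured 274 and 229 CPM under INK128, 154 in control 1 and 252 in control 3. The groups overlapped, and the edgeR estimate of 0.30 (SE 0.3, adjusted p 0.494) was −0.014 without control 1 and 0.69 without control 3 (adjusted p 0.0174). In control 1 there were 219 counts of Nr5a1 per 100 counts of Cyp11a1, against 6.27 in control 3 and 31.0 and 19.7 in the treated grafts. Nr5a1 is also expressed by Sertoli cells, whose markers summed to 2439 CPM in control 1 and to 94.0 to 350.4 CPM elsewhere, and their part in this value was not tested.

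**Figure D3:**
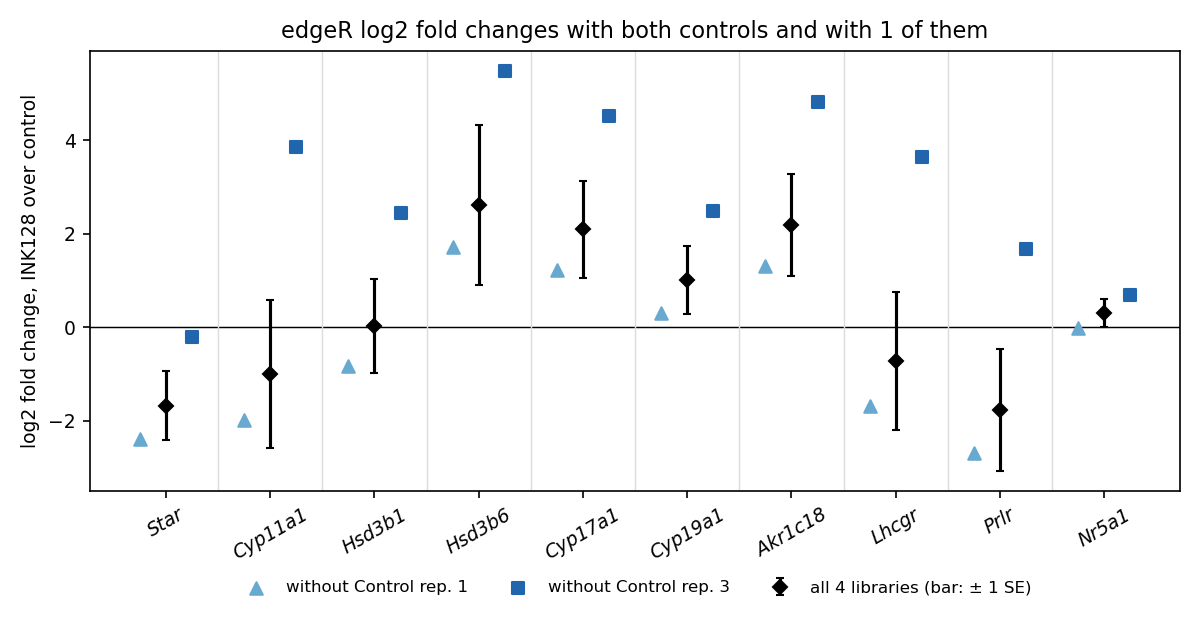
Log2 fold change of each member, INK128 over control, from edgeR with all 4 libraries (diamonds, bars 1 standard error), without control 1 (triangles) and without control 3 (squares). Without control 3, 9 members are called higher (21.2% of all tested genes are), and without control 1, 2 are called higher (22.7%) and 5 lower (23.2%).

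In 2 pairs, members had nearly the same profile over the 4 libraries, measured as the root mean square difference of log2(CPM + 0.5) after centring each gene. Cyp11a1 and Lhcgr differed by 0.18. Their counts kept a close ratio, with 42.0 and 41.9 Lhcgr counts per 100 Cyp11a1 counts in the treated grafts, 48.2 in control 1 and 34.2 in control 3, although Cyp11a1 itself spanned 70.3 to 4014 CPM. Cyp17a1 and Akr1c18 differed by 0.12. Per 100 counts of Cyp17a1 there were 29.2 and 24.5 counts of Akr1c18 under INK128, 21.4 in control 1 and 25.3 in control 3. Likeness over 4 libraries is a description, and many genes can share a profile by this measure.

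**Figure D4:**
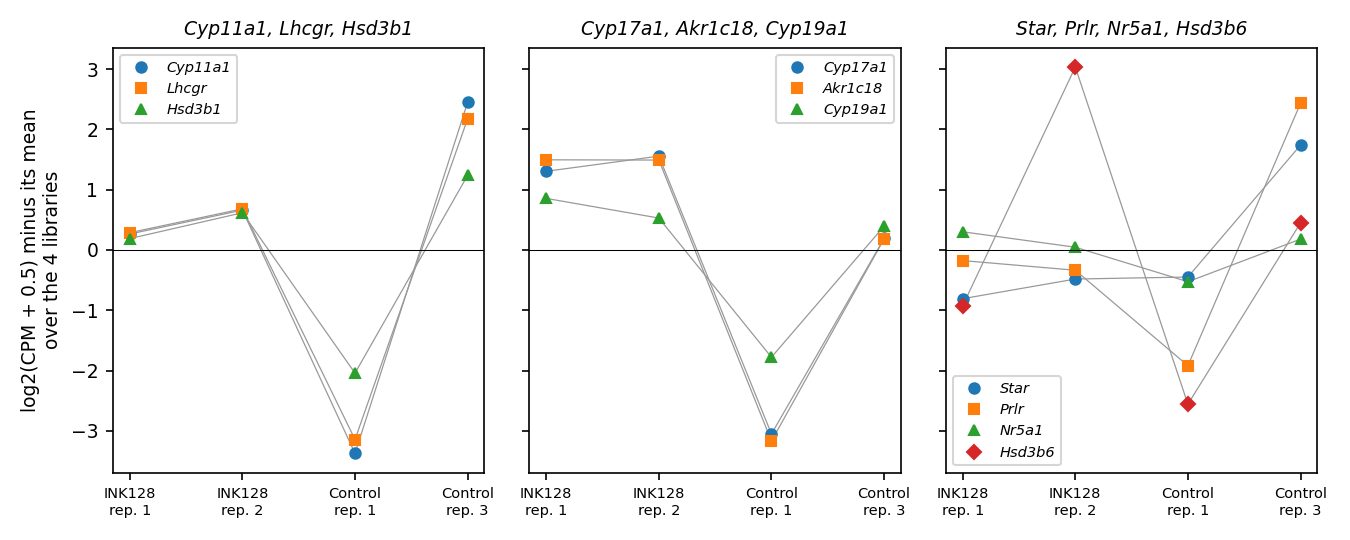
Log2(CPM + 0.5) of each member minus its mean over the 4 libraries, with libraries on the x axis in no order within a group and lines joining the points of a gene. Cyp11a1 and Lhcgr peak in control 3, while Cyp17a1 and Akr1c18 are highest in the treated grafts, and all 4 are lowest in control 1.

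Ratios of members within a library do not depend on how libraries are scaled. Per 100 counts of Cyp11a1 there were 40.3 and 36.5 counts of Cyp17a1 in the treated grafts, 24.0 in control 1 and 4.09 in control 3. For Akr1c18 the values were 11.8 and 8.92 under INK128, 5.14 in control 1 and 1.04 in control 3. Both ratios were thus higher in each treated graft than in either control. The Hsd3b1 ratio lay between the controls, at 230 and 235 under INK128, 613 in control 1 and 104 in control 3. So did the Cyp19a1 ratio, at 25.3 and 15.3 under INK128, 50.6 in control 1 and 4.04 in control 3. The Lhcgr and Nr5a1 ratios also lay between, and the Prlr ratio lay below both controls. The share of all genes whose ratio to Cyp11a1 sets the groups apart was not computed. For Star the treated grafts had 15.3 and 14.6 counts per 100 of Cyp11a1, below the 247 of control 1 and the 19.7 of control 3. With 2 libraries a side, a two-sided exact permutation test of such a ratio cannot give a p below 0.333, so none was run.

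Levels between genes were compared as CPM per kilobase of exon. In both treated grafts the order was led by Hsd3b1 (1093 and 1471), Cyp11a1 (184 and 242), Cyp17a1 (129 and 153) and Akr1c18 (86.2 and 85.9), and the values of neighbours in this order did not overlap. In control 3 Hsd3b1 (2260) and Cyp11a1 (836) were followed by Star (192) and Lhcgr (180), whose order within 1 library has no replicate. In control 1 Hsd3b1 (232) led, and Star (42.1) and Nr5a1 (36.3) came next. Prlr, on the same scale, was at 8.1 and 7.25 under INK128, 2.4 in control 1 and 49.6 in control 3.

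The nearest genes in profile were sought for each member among the 11758 tested genes, by the same root mean square measure. The nearest to Cyp11a1 and to Lhcgr was Oxtr, the oxytocin receptor, at 0.17 and 0.16. Oxtr measured 58.1 and 58.6 CPM under INK128, 3.83 in control 1 and 202 in control 3. For Cyp17a1 and Akr1c18 the nearest was each other, followed by Aspn (0.32) and Myoc (0.37), and 9 and 5 genes lay within 0.5. For Hsd3b1 the nearest were Stc1 (0.05) and Kcnk3 (0.13). Cyp19a1 was nearest to Adgrl3 (0.07) and Col8a1 (0.12), Star to Gm11131 (0.09) and Slc6a6 (0.11), and Prlr to Grin2b (0.43) and Ryr2 (0.43). For Nr5a1, with Irs1 and Etfa at 0.02, as many as 6806 genes lay within 0.5, so its profile singles out no gene. Hsd3b6 had 0 genes within 0.5, and the nearest were Nppc (1.16) and Xist (1.21).

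Genes around the members were listed by role in 7 lists, of which 67 of 68 genes were in the table and 62 were tested (53 above a mean of 10 CPM and 9 only among the 17631 genes above a mean of 1 CPM, where 0% of genes were called). edgeR called 0 of these 62. At an unadjusted p under 0.05 there were 13 of the 53 (36.4% of all tested genes) and 3 of the 9 (32.9% of the 17631 genes). DESeq2 called 9 of the 53 lower, where it called 15.1% of all genes lower and 13.6% higher, and 3 of the 9 lower, where it called 13.6% lower and 10.2% higher. It called 0 of the 62 higher, and limma voom called 0 of the 62 and 0% of all genes at either filter. Over the 53 genes the log2 fold change had a median of −0.09, against −0.03 for all tested genes, and the controls were more than 2-fold apart for 17 of them, with control 3 the higher for 16.

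Of 5 other luteal genes tested, edgeR called 0 and DESeq2 called 3 lower (Ptgfr, adjusted p 0.0408, Bhmt, 0.000253, and Parm1, 0.000217), with a median of −2.09, and control 3 was more than 2-fold above control 1 for 3 of them (Ptgfr, Bhmt and Sfrp4). Ptgfr, the prostaglandin F receptor through which the corpus luteum regresses, measured 3.18 and 3.84 CPM under INK128, 3.08 in control 1 and 236 in control 3. The treated grafts were therefore at the level of control 1, and the edgeR estimate of −5.10 (log2, SE 1.97, adjusted p 0.142) became 0.18 without control 3. Bhmt, a methyltransferase of homocysteine metabolism, measured 0.647 and 1.11 CPM under INK128, 3.31 in control 1 and 44.5 in control 3. It was estimated at −4.76 (adjusted p 0.0876 in edgeR), and at −1.90 without control 3. Bhmt is also a kidney and liver gene. Sfrp4, a secreted Wnt modulator, measured 201 and 187 CPM under INK128, 16.3 in control 1 and 727 in control 3. Parm1 was instead lower in the treated grafts than in each control, at 5.61 and 8.09 CPM under INK128, 20.9 in control 1 and 36.9 in control 3, and edgeR estimated −2.09 (adjusted p 0.052). Timp1, an inhibitor of matrix proteases, was lowest in control 3, at 31.4 CPM, against 36.7 in control 1 and 44.6 and 40.1 under INK128. Oxt, which encodes oxytocin, was not tested, with 0 and 3 counts under INK128 and 0 in each control. From the list of steroid enzymes, Hsd17b7, an enzyme of estradiol and cholesterol synthesis, was also highest in control 3, at 35.96 and 23.9 CPM under INK128, 15.1 in control 1 and 483 in control 3. Here edgeR estimated −3.07 (adjusted p 0.214), and 0.98 without control 3.

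Of 10 tested genes that supply cholesterol, edgeR and DESeq2 each called 0, with a median of −0.18, and control 3 was more than 2-fold above control 1 for 3 of them. Scarb1, the receptor for high-density lipoprotein, measured 308 and 322 CPM under INK128, 231 in control 1 and 1153 in control 3, for which edgeR estimated −1.15 (adjusted p 0.322). Stard4, a cholesterol carrier, measured 24.96 and 23.0 CPM under INK128, 18.1 in control 1 and 86.6 in control 3, for which edgeR estimated −1.14 (adjusted p 0.318). For both, the treated grafts lay between the controls, and without control 3 the log2 estimates turned to 0.43 and 0.40. Other members of the list had other profiles. Stard3, a carrier of endosomal cholesterol, was highest in control 1 at 36.4 CPM, against 26.8 in control 3 and 26.1 and 25.05 under INK128. Tspo, a protein of the outer mitochondrial membrane, was highest in the treated grafts, at 81.0 and 93.8 CPM, against 45.0 in control 1 and 63.0 in control 3.

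Electron transfer partners gave 0 calls in edgeR among 5, and 1 in DESeq2, with a median of 0.01. Fdx1 encodes ferredoxin, which passes electrons to CYP11A1. Its level was 355 and 414 CPM under INK128, 48.7 in control 1 and 503 in control 3. The edgeR estimate for Fdx1 was 0.47 (adjusted p 0.759), and −0.40 without control 1. H6pd, which makes NADPH in the endoplasmic reticulum, measured 71.0 and 75.1 CPM under INK128, 127 in control 1 and 142 in control 3. Its edgeR estimate of −0.90 (SE 0.17, adjusted p 0.0507) lay just outside the threshold. H6pd was called by DESeq2 (adjusted p 0.000244) and by edgeR with library totals as the scaling (−1.03, adjusted p 0.0464) or no filter on low counts (adjusted p 0.0331). It was not called by limma voom (adjusted p 0.0611). Nor was it by edgeR with length offsets (adjusted p 0.0909) or with other scalings (adjusted p 0.0514 and 0.0516). The edgeR estimate was −0.98 without control 1 and −0.82 without control 3.

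Among other steroid enzymes, neither edgeR nor DESeq2 called any of 11 tested genes. Sult1e1, the sulfotransferase that inactivates estrogen, had 1 and 6 counts under INK128, 82 in control 1 and 12 in control 3. Hsd17b3, the testosterone-producing enzyme of Leydig cells, stayed at 0.139 to 1.45 CPM in all 4 libraries, and Insl3, made by theca and Leydig cells, at 11.97 to 45.2 CPM. The theca markers, of which Cyp17a1 is one, summed to 1403 and 1347 CPM under INK128, 1052 in control 1 and 1649 in control 3, a sum led by Aldh1a1 (734 and 628 CPM under INK128, 873 in control 1 and 1269 in control 3). Of these 6 markers, 3 lay above both controls in each treated graft, where 35.2% of tested genes did. Besides Cyp17a1 they were Hhip (62.2 and 61.8 CPM under INK128, 8.33 in control 1 and 30.6 in control 3) and Gli1 (32.5 and 46.4, 11.2 and 16.7), and their part in Cyp17a1 was not tested. The Leydig markers, which include Cyp17a1, Hsd3b6 and Lhcgr, summed to 760.0 and 1009 CPM under INK128, 113 in control 1 and 1565 in control 3.

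Paralogs of the HSD3B and AKR1C enzymes gave 0 calls in edgeR among 9 tested, while DESeq2 called 4 lower (Hsd3b2, adjusted p 4.55e-05, Hsd3b3, 0.00286, Hsd3b4, 0.00796, and Akr1c21, 8.86e-05). Hsd3b2 had 5 and 5 counts under INK128, 83 in control 1 and 149 in control 3, and Hsd3b4 had 0 and 1 counts, 15 and 103. Both are kidney-expressed members of the family in mice, and both were higher in each control than in either treated graft. This was also so for 12 of 14 kidney markers (33.3% of tested genes), and the list summed to 95.7 and 195 CPM under INK128, 658 in control 1 and 1485 in control 3. The part of host kidney in these values was not tested.

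Receptors and transcriptional regulators gave 0 calls in edgeR among 17 tested, with a median of −0.06, while DESeq2 called 2 lower (Nr0b1, adjusted p 0.021, and Creb1, 0.0129). Nr0b1, a repressor of NR5A1, measured 6.42 and 4.39 CPM under INK128, 90.8 in control 1 and 4.32 in control 3. Sertoli markers were high in the same library, as Sox9 (4.53 and 6.24 CPM under INK128, 147 in control 1 and 4.41 in control 3), and their part in Nr0b1 was not tested. For Nr0b1 the edgeR estimate of −3.15 (adjusted p 0.179) was 0.30 without control 1. Pgr, the progesterone receptor, measured 3.77 and 4.16 CPM under INK128, 2.82 in control 1 and 13.2 in control 3. Among genes above 1 CPM edgeR estimated −0.97 for Pgr (adjusted p 0.418), and 0.53 without control 3.

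Genes that carry the prolactin signal inside the cell had a median of −0.67 for the log2 fold change, with 0 of 6 called by edgeR. Cish, Socs2 and Socs3 encode feedback inhibitors of JAK-STAT signaling, and their estimates differed in sign. Cish measured 7.76 and 13.5 CPM under INK128, 24.8 in control 1 and 32.2 in control 3, and edgeR estimated −1.43 (adjusted p 0.0732). Socs3 measured 17.7 and 15.6 CPM under INK128, 27.4 in control 1 and 48.9 in control 3, and edgeR estimated −1.21 (adjusted p 0.0849). The groups did not overlap for Cish or Socs3, nor did they for 68.5% of tested genes. Of the 6 genes, 3 lay below both controls (33.3% of tested genes) and 1 above both (35.2%). DESeq2 called Cish and Socs3, where it called 15.1% of tested genes lower. Socs2 lay above both controls, at 352 and 405 CPM under INK128, 184 in control 1 and 320.0 in control 3, and edgeR estimated 0.57 (adjusted p 0.253). Jak2, the kinase bound to the receptor, lay below both controls, with an edgeR estimate of −0.81 (adjusted p 0.115), and Stat5a and Stat5b, the transcription factors it activates, overlapped between the groups. Immune markers were lower in the same libraries, for 7 of 9 genes in each treated graft (33.3% of tested genes), with sums of 196 and 193 CPM under INK128, 327 in control 1 and 513 in control 3, and their part in Cish and Socs3 was not tested.

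**Figure D5:**
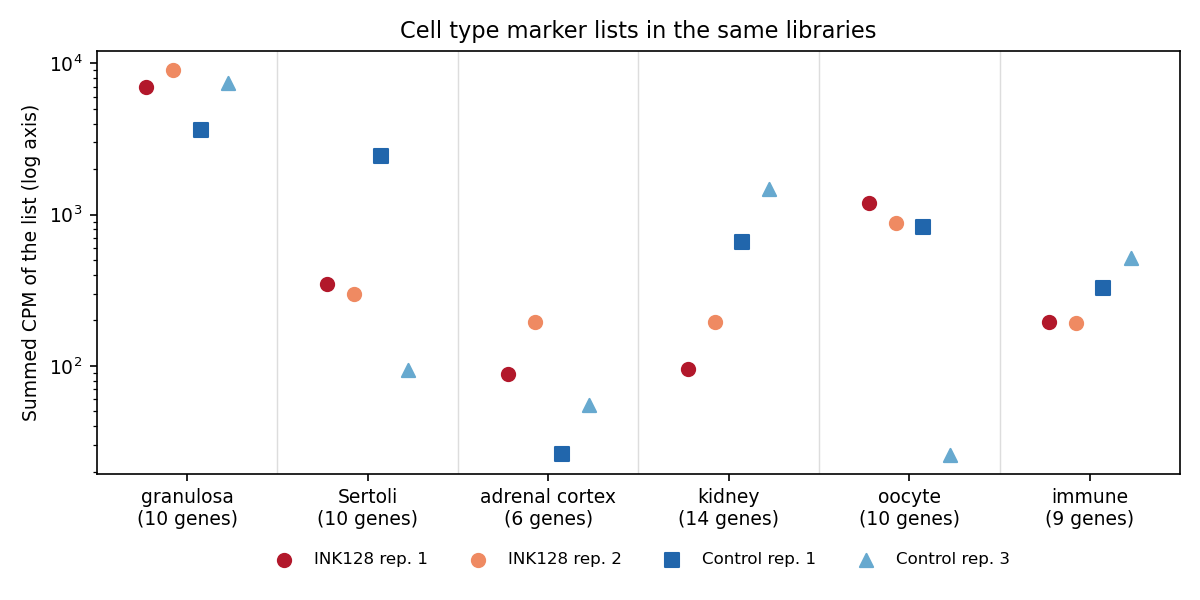
Summed CPM (log axis) of 6 lists of cell type markers in the 4 libraries, 1 point per library. Sertoli markers peak in control 1, oocyte markers drop to 25.9 CPM in control 3, adrenal cortex markers are higher in the treated grafts, and kidney and immune markers are higher in the controls.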

How the data were processed

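Bulk RNA-seq of 4 rOvary libraries was used. The study's methods state that the authors trimmed with Trimmomatic, mapped to mm10 by Hisat2 and ran featureCounts on a RefGene annotation (strand and multi-read settings are not given in the sources used here). The deposited values are unnormalized read counts, 1 row per gene symbol, and columns were assigned to libraries by name.

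Counts were scaled to CPM by edgeR 4.0.16 (TMM factors, R 4.3.3). Groups were compared by the quasi-likelihood test of edgeR, adjusted by Benjamini-Hochberg over 11758 genes (mean CPM over 10), with each standard error taken from the estimate and its F statistic. Pathway genes below that mean were tested among the 17631 genes above 1 CPM. DESeq2 1.42.0, limma 3.58.1 (voom), other scalings and filters, length offsets and omission of each library were alternatives. Scripts were tested on simulated data. Gene positions and exon lengths were those of GENCODE M21 (53447 of 54021 symbols matched). Named pathway genes were the 2 largest changes of each list, and others, such as adrenal genes, were chosen after their values were seen. Members and lists were chosen with earlier results of these data known.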

Additional observations from a re-analysis of the deposited data

How the results depend on the processing

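No paired analysis was possible because no pairing between the groups is given in the sources used here. Leaving out a control moved the calls most. The count of members called, 0 with all libraries, ranged from 0 to 9 with 1 library left out, also among genes with a mean CPM above 1, and was 1 with DESeq2 on either set of genes. The count of pathway genes called, 0 with all libraries, ranged from 0 to 28, and was 12 with DESeq2, 2 with library totals and 11 with no filter on low counts. Every other setting kept these counts at 0. The pathway genes called with DESeq2, library totals or no filter were all lower with INK128. Without control 1 the pathway calls were mostly lower, and without control 3 they went in both directions. Those fits also called a large share of all tested genes, as given above. The share of all genes called with library totals or with no filter was not computed, so those 2 counts have no background.

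With 1 library left out, log2 fold changes ranged from −1.99 to 3.85 for Cyp11a1, −0.83 to 2.45 for Hsd3b1, −0.63 to 5.49 for Hsd3b6, −1.69 to 3.65 for Lhcgr, −2.71 to 1.67 for Prlr and −0.014 to 0.69 for Nr5a1. They ranged from −1.88 to 0.43 for Scarb1, −1.86 to 0.40 for Stard4, −0.40 to 2.97 for Fdx1, −4.03 to 0.98 for Hsd17b7, −4.09 to 0.30 for Nr0b1, −1.69 to 0.53 for Pgr and −6.08 to 0.18 for Ptgfr. Signs also turned for Cyp11a1 (0.92) and Lhcgr (0.96) with limma voom, and for Hsd3b1 with library totals (−0.11, where the median of all genes was −0.16) and with length offsets (−0.59). The cause of these reversals beyond the left-out library was not tested. Star, Cyp17a1, Cyp19a1 and Akr1c18 kept their sign under each setting tried. The count of members more than 2-fold apart between controls was 9 with library totals, among genes above 1 CPM and after removing the length trend. Precision was limited by 2 libraries per group.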
